A study of Mus musculus with 16 samples.

Results

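The genes described here are 35 of the 24001 gene rows in an RNA-seq table of mouse dendritic cells, chosen by name because their products make, regulate or export sterols and fatty acids. They comprise 19 enzymes of sterol synthesis, 6 genes that regulate the SREBP transcription factors or carry sterol, 8 enzymes of fatty acid synthesis and desaturation, and the 2 cholesterol exporters Abca1 and Abcg1. The rule used no measured value, and every one of the 35 genes was expressed highly enough to be tested.

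SREBP proteins are made as precursors in the endoplasmic reticulum membrane. When sterol is scarce, the escort protein Scap carries them to the Golgi, where proteases release the part that enters the nucleus and activates transcription. When sterol is plentiful, the Insig proteins hold Scap back. Srebf2 encodes SREBP-2, known mainly for sterol synthesis genes, and Srebf1 encodes SREBP-1, known mainly for fatty acid genes. Oxysterols activate the LXR receptors, which are known to induce Abca1 and Abcg1, so that sterol synthesis and export are usually under opposite control. In macrophages and dendritic cells, lipid synthesis is known to be altered by signals from Toll-like receptors.

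Dendritic cells were grown for 7 days from the bone marrow of lupus-prone NZM2410 mice with IL-4 at 10 ng/ml and GM-CSF at 20 ng/ml. They then received vehicle or TLR agonists for 24 h. The agonists were loxoribine, which acts on TLR7, and 1 μg/ml CpG DNA, which acts on TLR9. There were 4 arms, named WT, KO, ERKO OVX and Ex3a OVX by the source labels, each with 2 vehicle and 2 agonist libraries, 16 in all. WT mice had intact estrogen receptor α, encoded by Esr1. KO and ERKO OVX stand for a truncated form of the receptor called ERα short, and Ex3a OVX for a null allele. The WT and KO arms had no surgery. Mice of both OVX arms were ovariectomized at 4 to 8 weeks of age and received a pellet holding 0.25 mg estradiol for release over 90 days. The genotype labels disagree with the source labels, naming the null allele, Esr1(tm4.2Ksk), for the vehicle libraries of KO and ERKO OVX and the allele of ERα short, Esr1(tm1Ksk), for Ex3a OVX. Groups here follow the source labels. The sample labels name no Cre, although the title of the series speaks of a conditional knockout in CD11c+ cells. The labels do not tell whether both libraries of a group stem from different animals, and the p-values below reflect the spread of the libraries alone, which may be technical.

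Values are FPKM, sequenced fragments scaled for gene length and library size. Depth, estimated from the steps between low values, was 36.2 to 42.7 M fragments (M, mega) per library without surgery and 17.5 to 23.4 M fragments in the OVX arms, so surgery and depth cannot be told apart. The 2 libraries of each OVX group differed by about sampling noise and were averaged and counted as 1 sample, leaving 12 samples. The labels speak of triplicates, of which 2 libraries per group were analysed here. Fold changes are differences of log2(FPKM + 1) ± the standard error of the limma fit, and they understate the change of genes with low values. For OVX groups that error comes from the unoperated groups, with n = 2 libraries each. A gene was said to rise or fall at a limma adjusted p under 0.05. Esr1 itself had 0.684 to 1.38 FPKM in WT, 1.77 to 2.57 in KO, 0.982 to 1.16 in ERKO OVX and 0.283 to 0.364 in Ex3a OVX, and values summed per gene cannot tell its alleles apart. Reads of Scd1 and Scd2 could be divided between these paralogs in counting, and Cyp51, Fdft1, Ggps1 and Srebf1 share 109 to 774 exon bases with a coding gene on the other strand, whose reads cannot be told apart unless strand was used in counting, which is not given. The dendritic cell markers Itgax and Cd74 were present in every library, Itgax at 86.0 to 155 FPKM. Zbtb46, a transcription factor of classical dendritic cells, was at 13.1 to 27.8 FPKM without surgery and 2.65 to 4.69 FPKM in the OVX arms. B cell and erythroid marker sums reached at most 1.33 FPKM, and of 5 stromal and adipocyte genes only Lpl, which macrophages also express, was above 1 FPKM in most groups. Macrophage and neutrophil markers, and a joint list of mast cell, basophil and eosinophil markers, differed between arms and are given beside the results they move with. In bulk samples such as these, fewer cells of a type and less RNA per cell cannot be told apart.

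The promoter sequences of the genes were searched for motifs known in SREBP and LXR control. Of the 35 genes, 27 had an entry in the RefSeq promoter table (GRCm38.p6), which gives 250 bases before and 50 after each start site. On either strand, CCAAT, the box bound by NF-Y, a usual partner of SREBP, stood in 15 of 16 sterol enzyme promoters (93.8%), 4 of 5 regulator promoters, 2 of 5 fatty acid promoters and not in that of Abca1. It stood in at least 1 window of 41.1% of all 27025 genes of the table. The sterol regulatory element core TCACNCCAC stood in 1 of the 27, that of Hmgcs1, and in 1.44% of all genes. The E-box CACGTG, which SREBP-1 can also bind, stood in 6 of 27 and in 8.09% of all genes. The LXR element, AGGTCA followed after any 4 bases by another AGGTCA, stood in none of the 27 and in 0.0148% of all genes. A match is a description of letters and not a binding site, and no match says only that these letters are not in this window.

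Shown are bases before the start site of 5 genes, picked to set sterol enzymes beside an exporter. The windows begin 150 bases before the start site and end at it or, in Mvk and Abca1, where the gene begins in the RefSeq annotation, which leaves 145 and 57 bases. They overlap no exon of GENCODE M21. Capitals mark matches to CCAAT or its reverse complement, to the sterol element core in Hmgcs1, and to CACGTG in Sc5d and Abca1. The windows lie at chr13:119690201-119690350 (+) for Hmgcs1, chr5:114444119-114444263 (+) for Mvk, chr8:122443423-122443572 (-) for Mvd, chr9:42264301-42264450 (-) for Sc5d and chr4:53159989-53160045 (-) for Abca1. Each is written 5′ to 3′ along its gene.
Hmgcs1: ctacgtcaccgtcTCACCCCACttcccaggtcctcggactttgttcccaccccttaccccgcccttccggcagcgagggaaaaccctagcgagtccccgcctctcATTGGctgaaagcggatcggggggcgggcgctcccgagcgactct
Mvk: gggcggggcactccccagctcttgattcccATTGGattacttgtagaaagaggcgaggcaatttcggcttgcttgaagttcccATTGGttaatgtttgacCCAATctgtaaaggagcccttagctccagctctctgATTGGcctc
Mvd: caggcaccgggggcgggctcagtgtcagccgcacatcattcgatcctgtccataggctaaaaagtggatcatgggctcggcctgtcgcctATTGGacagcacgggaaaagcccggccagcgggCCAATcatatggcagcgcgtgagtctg
Sc5d: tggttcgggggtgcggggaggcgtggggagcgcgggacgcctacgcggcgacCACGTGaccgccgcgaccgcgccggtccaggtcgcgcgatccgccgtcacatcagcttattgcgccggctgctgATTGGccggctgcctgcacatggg
Abca1: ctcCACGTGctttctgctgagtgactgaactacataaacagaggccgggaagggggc
Mvk, the mevalonate kinase, had 4 CCAAT matches in the window shown and Mvd, the decarboxylase that acts next but one, had 2, against 1 in Sc5d. The window of Abca1 held the E-box and no CCAAT.

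Across the 8 groups, in FPKM as deposited, the sterol enzymes were most abundant in ERKO OVX vehicle cells and least abundant in WT vehicle and Ex3a OVX vehicle cells. The summed FPKM of the 19 enzymes was 265 and 266 in the 2 WT vehicle libraries, 369 in both KO libraries, 497 and 495 (ERKO OVX) and 263 and 264 (Ex3a OVX). The agonist libraries had sums of 304 and 307 (WT), 417 and 409.7 (KO), 444 and 447 (ERKO OVX) and 284 and 286 (Ex3a OVX). It was thus higher with agonists in WT, KO and Ex3a OVX libraries and lower with agonists in ERKO OVX libraries, with no overlap between treatments of an arm. FPKM of all genes summed to 481738 to 522287 per library without surgery and to 612322 to 696321 in the OVX arms, so levels on either side of the surgery depend on scaling. Within WT the totals were 489612 and 489741 with vehicle and 522287 and 521567 with agonists. Within ERKO OVX they were 652417 and 649892 against 613251 and 612322. Within Ex3a OVX they were 659985 and 657791 against 696321 and 692566. Scaling thus also bears on the agonist responses of these arms. After each library was rescaled to the same total (TPM), the highest sterol sums were 859 and 842 TPM in KO agonist cells, against 779 and 777 in ERKO OVX vehicle cells, and the lowest stayed in Ex3a OVX vehicle cells, at 407 and 409. The 8 fatty acid genes summed to 161 and 159.7 FPKM in WT vehicle, 185 and 182 (KO), 217 in each library (ERKO OVX) and 107 and 109 (Ex3a OVX). The agonist libraries had 142 and 141, 158 and 163, 175 and 178, and 107 and 105 FPKM in the same order. In FPKM as deposited, the fatty acid sum was therefore lower with agonists in WT, KO and ERKO OVX and almost level in Ex3a OVX. After rescaling it was lower in Ex3a OVX too, at 165 and 168 TPM with vehicle and 156 and 155 with agonists. The highest rescaled fatty acid sums were 386 and 377 TPM in KO vehicle cells, against 339.5 and 340 in ERKO OVX vehicle cells. The 2 exporters summed highest in Ex3a OVX vehicle cells, at 124 FPKM in both libraries, against 96.9 and 96.3 in ERKO OVX vehicle cells. After rescaling these sums were 192 TPM in both Ex3a OVX vehicle libraries, still the highest, and 152 and 151 in ERKO OVX vehicle cells. Libraries without surgery had 168 to 180 TPM, so ERKO OVX vehicle cells lay below them after rescaling and above them before it.

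**Figure D1:**
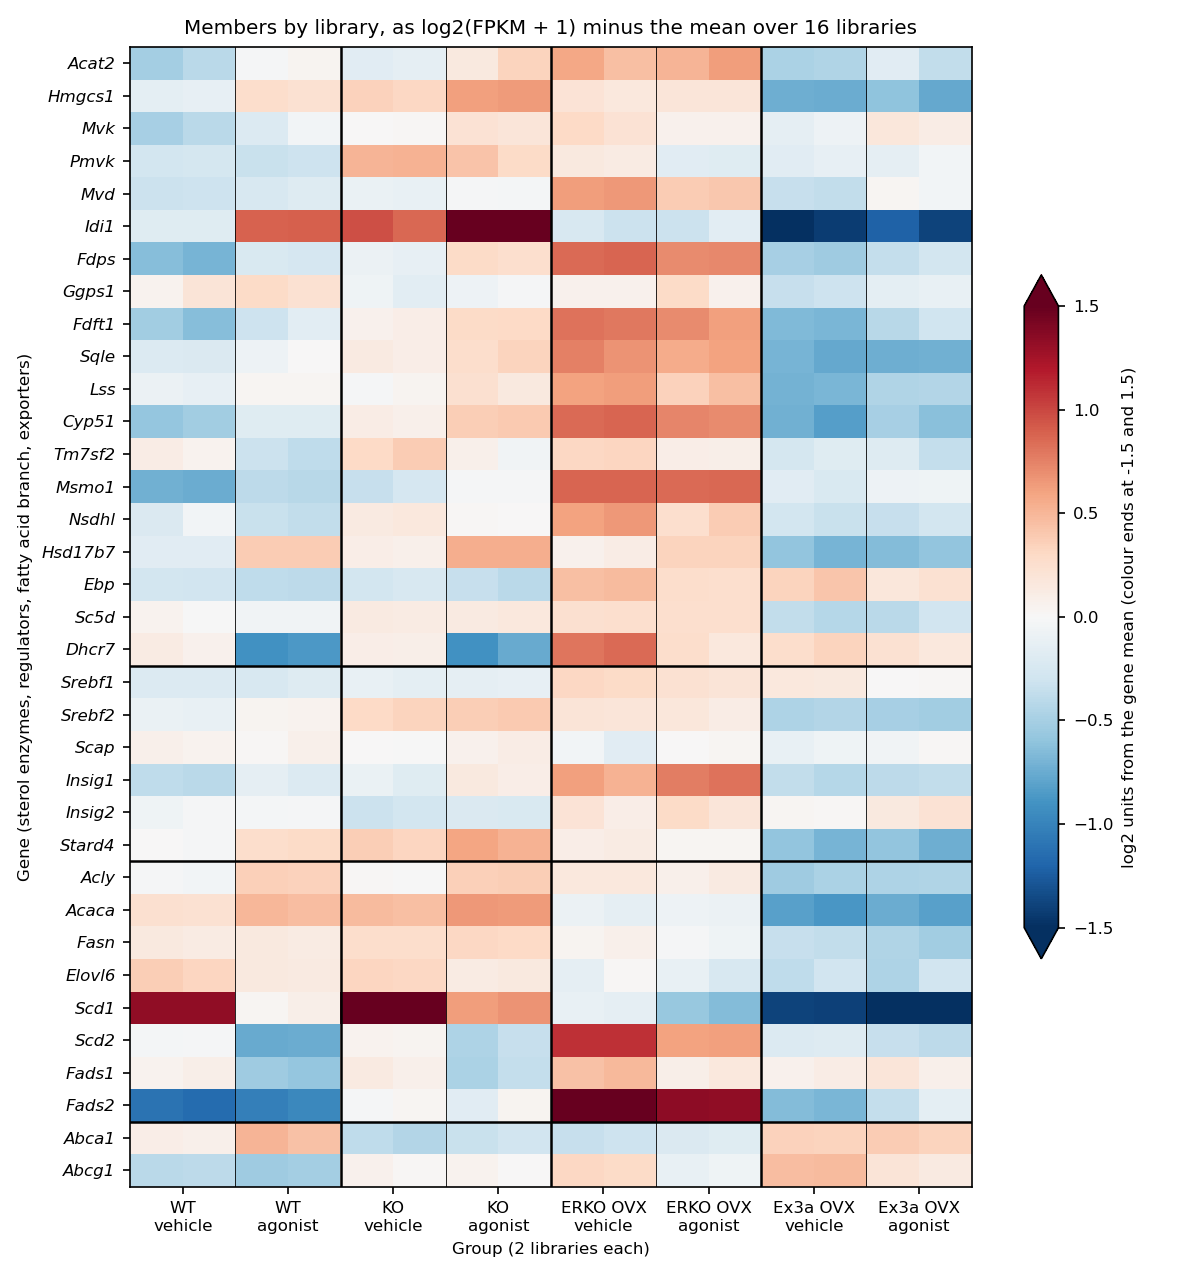
Level of each of the 35 genes (vertical axis, ordered by role) in the 16 libraries (horizontal axis, by group), as log2(FPKM + 1) minus the gene's mean over the 16 libraries, with red above and blue below that mean. Most sterol enzymes are red in the ERKO OVX columns and blue in the Ex3a OVX vehicle columns, while Scd1 is red in vehicle cells of WT and KO and Abca1 is red in WT agonist and Ex3a OVX cells.

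By group mean, 11 of the 19 sterol enzymes were highest in ERKO OVX vehicle cells and 11 were lowest in Ex3a OVX vehicle cells, and after rescaling these counts were 9 and 9. Between the highest and the lowest group the FPKM as deposited differed 17.6-fold for Scd1, 11.8-fold for Idi1 and 10.4-fold for Fads2. It differed 1.15-fold for Scap, whose level varied least on that scale. The heat map of the 35 genes, drawn from the same values, shows these as the genes with the strongest and the faintest colours. Each of these ranges spans arms with and without surgery, so its size and the rank of Scap depend on scaling. Scd1 is the stearoyl-CoA desaturase that makes oleate, Idi1 the isomerase of the isoprenoid precursors, and Fads2 the first desaturase of polyunsaturated fatty acids. In the RefSeq annotation of GRCm38.p6, Idi1 lies at chr13:8885606-8892396, Scd1 at chr19:44394450-44407709 near its paralog Scd2 at chr19:44293676-44306864, and Fads2 at chr19:10062765-10101503 near Fads1 at chr19:10182877-10196874.

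In WT cells the agonists raised most sterol enzymes and lowered 3 of 4 desaturases. Of the 19 sterol enzymes, 12 rose and 4 fell (median log2 fold change 0.18), and of the 8 fatty acid genes 2 rose and 4 fell (median -0.10). Over all 35 genes 18 rose and 9 fell, where 30.8% of 11329 genes rose and 27.0% fell with a median of 0.02. When each library was rescaled to the same total the split of the 35 was 15 to 13. In either direction 57.8% of all genes tested passed, so a count of members that passed says little without its direction and size.

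Idi1 rose from 10.3 and 10.3 FPKM in the WT vehicle libraries to 22.7 and 22.8 with agonists (log2 fold change 1.07 ± 0.04, limma adjusted p = 1.15e-08). Hsd17b7, a reductase of late sterol synthesis, rose from 3.44 and 3.45 to 5.52 and 5.50 FPKM (log2 fold change 0.55 ± 0.04, limma adjusted p = 1.64e-06). Acat2, which joins acetyl-CoA units at the start of the pathway, rose from 3.94 and 4.34 to 5.94 and 6.23 FPKM (log2 fold change 0.46 ± 0.06, limma adjusted p = 1.57e-04). These enzymes were picked by the size of their called change, so the lack of overlap between vehicle and agonist libraries adds no support. Dhcr7, which makes cholesterol from 7-dehydrocholesterol in the last step, moved the other way, from 8.95 and 8.59 to 3.88 and 4.03 FPKM (log2 fold change -0.98 ± 0.05, limma adjusted p = 1.70e-07). Tm7sf2 (-0.43), a sterol reductase, Nsdhl (-0.23), which acts with Msmo1 and Hsd17b7 in demethylation, and the isomerase Ebp (-0.11) also fell. The enzymes that fell all act after lanosterol is formed, as do Cyp51 (0.37), Msmo1 (0.32) and Hsd17b7, which rose. The mevalonate enzymes Hmgcs1 (0.38), Mvk (0.33) and Mvd (0.10), the prenyl transferase Fdps (0.43), and Fdft1 (0.35), Sqle (0.18) and Lss (0.13), which lead to squalene and lanosterol, rose. In pathway order, Pmvk (-0.05), Ggps1 (0.13) and Sc5d (-0.07) did not pass the test. Among the smallest of these changes, that of Mvd had an adjusted p of 0.0968 without WT agonist replicate 2 and 0.0719 without WT vehicle replicate 1. Lss lost its call without WT vehicle replicate 2 or without either agonist library (adjusted p 0.0815, 0.055 and 0.0572), and Ebp without WT vehicle replicate 1 or agonist replicate 2 (0.0554 and 0.0571). Mvd, Lss and Sqle also missed the threshold after rescaling to the same total (adjusted p 0.788, 0.308 and 0.0620).

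Among the regulators, Insig1, which retains Scap and is itself a classical SREBP target, rose in WT from 12.3 and 12.1 to 14.9 and 14.0 FPKM (log2 fold change 0.22 ± 0.04, limma adjusted p = 8.82e-04). Srebf2 rose from 35.2 and 34.98 to 39.0 and 39.5 FPKM (log2 fold change 0.16 ± 0.03, limma adjusted p = 5.77e-04), and the sterol carrier Stard4 rose too (0.29). Srebf1 was at 15.0 and 14.9 FPKM with vehicle and 14.6 and 15.0 with agonists (-0.01 ± 0.03 on the log2 scale), and Scap (-0.02) and Insig2 (0.01) likewise missed the threshold. Messenger levels do not show how much SREBP was processed.

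In the fatty acid branch the WT response split by step. Acly, which supplies acetyl-CoA from citrate, rose from 60.3 and 59.4 to 78.6 and 78.0 FPKM (log2 fold change 0.38 ± 0.02, limma adjusted p = 4.79e-07), and Acaca, the acetyl-CoA carboxylase, rose by 0.25 ± 0.04. Scd1 fell from 28.8 and 28.6 to 11.0 and 11.6 FPKM (log2 fold change -1.27 ± 0.04, limma adjusted p = 2.38e-09). Scd2, its close paralog, fell from 35.5 and 35.8 to 21.0 and 21.1 (log2 fold change -0.73 ± 0.04, limma adjusted p = 9.13e-08). Fads1, the second desaturase of the polyunsaturated series, fell from 17.7 and 18.1 to 11.5 and 11.0 (log2 fold change -0.63 ± 0.04, limma adjusted p = 1.24e-06). Acly and Acaca thus rose while 3 of 4 desaturases fell. Elovl6 fell by 0.20 at a level near 1 FPKM, which among the 8 groups it reached with vehicle in WT and KO and nowhere else, so that it entered the test through those libraries. In this branch the fatty acid synthase Fasn (0.00) and Fads2 (0.13) did not pass the test.

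The exporters diverged in WT cells. Abca1, which loads cholesterol onto lipid-poor apolipoprotein, rose from 42.8 and 42.1 to 57.4 and 54.6 FPKM (log2 fold change 0.39 ± 0.03, limma adjusted p = 6.92e-06). Abcg1, which passes cholesterol to mature lipoprotein, fell from 39.7 and 39.8 to 36.2 and 36.8 (log2 fold change -0.12 ± 0.03, limma adjusted p = 0.00408). The agonist libraries were above the vehicle libraries for Abca1 and below them for Abcg1. All 7 tested of 8 macrophage markers fell with agonists in WT, with sums of 963 and 998 FPKM with vehicle and 777 and 799 with agonists. Of 9 dendritic cell markers 5 rose and 1 fell. Of 7 neutrophil markers tested 2 rose and 0 fell, with sums of 50.4 to 67.9 FPKM with vehicle and 83.9 to 87.3 with agonists. The part of these markers in the changes of the 35 genes was not tested.

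**Figure D2:**
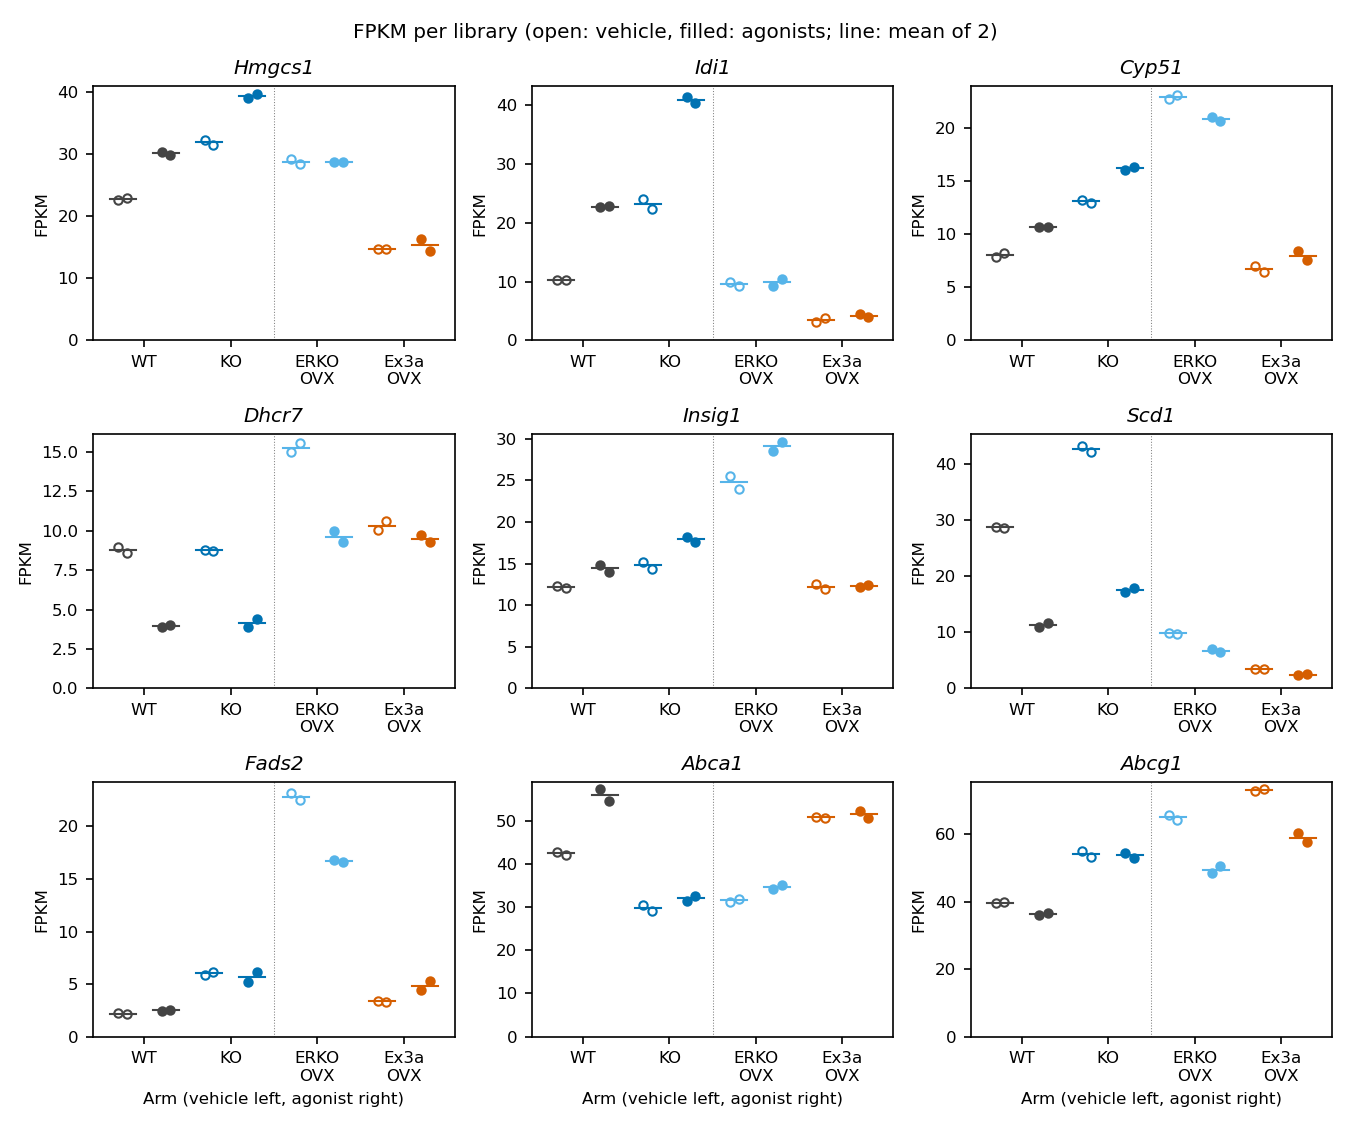
FPKM (vertical axes, from 0) of 9 genes in each library of the 4 arms (horizontal axes), with vehicle as open and agonists as filled points and a line at the mean of the 2 libraries. Idi1 and Scd1 move in opposite directions with agonists in WT and KO, and in Hmgcs1, Idi1, Cyp51, Insig1 and Fads2 every ERKO OVX point lies above every Ex3a OVX point.

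In KO cells, too, most sterol enzymes rose and 3 of 4 desaturases fell. Again 12 of 19 sterol enzymes rose and 4 fell (median 0.19), and of the 8 fatty acid genes 2 rose and 4 fell (median -0.13). In all 17 of 35 rose and 8 fell, against 25.9% and 25.3% of 11328 genes (51.2% in all) and a median of 0.01. Idi1 went from 24.1 and 22.3 to 41.4 and 40.5 FPKM (log2 fold change 0.79 ± 0.04, limma adjusted p = 1.18e-07), from a vehicle level at about that of WT agonist cells. Dhcr7 fell from 8.78 and 8.70 to 3.87 and 4.42 FPKM (log2 fold change -0.92 ± 0.05, limma adjusted p = 3.37e-07) and Scd1 from 43.2 and 42.0 to 17.2 and 17.8 FPKM (log2 fold change -1.24 ± 0.04, limma adjusted p = 5.67e-09). These 3 genes were picked in the same way, and the lack of overlap between treatments likewise adds no support. Hsd17b7 (0.45), Acat2 (0.39), Acly (0.36) and Insig1 (0.26) rose, and Fads1 (-0.52) and Scd2 (-0.45) fell. Srebf2 (0.06) and Srebf1 (-0.00) did not pass the test. Mvd, counted as risen, lost its call when any KO library was left out (limma adjusted p 0.0880 to 0.130) and after rescaling (0.0932). Mvk lost its call without either KO vehicle library or agonist replicate 1 (limma adjusted p 0.0527 to 0.0747). So did Elovl6, counted as fallen (0.0516 to 0.0682). Ebp lost its call without KO vehicle replicate 2 or agonist replicate 2 (0.0632 and 0.0749). Abcg1 stayed at 55.1 and 53.4 FPKM with vehicle and 54.6 and 52.9 with agonists, and Abca1 went from 30.5 and 29.2 to 31.5 and 32.6 (log2 fold change 0.10 ± 0.03, limma adjusted p = 0.0349). That call for Abca1 was lost without KO vehicle replicate 2 (0.07, adjusted p = 0.215), without KO agonist replicate 2 (0.07, adjusted p = 0.178) and without either WT vehicle library (adjusted p 0.0519 and 0.0518), and after rescaling it was 0.09 (adjusted p = 0.0724). Macrophage markers fell in KO as well, 6 of 7 tested, with sums of 294 to 296 FPKM with vehicle and 207 to 227 with agonists. Of 9 dendritic cell markers 3 rose and 3 fell, and of 7 neutrophil markers tested 1 rose and 0 fell. The part of these markers in the KO changes was not tested.

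The test of the difference between the 2 responses found 3 of 35 genes, 1 more positive and 2 more negative in KO, where 6.91% of 11328 genes passed, 2.3% and 4.62% by direction. The rise of Idi1 was smaller in KO by 0.28 ± 0.05 log2 units (limma adjusted p = 0.0142). The rise of Abca1 was smaller in KO by 0.29 ± 0.05 (limma adjusted p = 0.00749), and the fall of Scd2 was smaller in KO, with a difference of 0.28 ± 0.05 (limma adjusted p = 0.00949). When libraries were rescaled to the same total, 2 genes differed upward and 2 downward. The difference in Idi1 was lost without either WT vehicle library (adjusted p 0.0528 and 0.0559) and, with 16 libraries as separate samples, the adjusted p was 0.103, and 0.0601 with 5 FPKM added.

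The agonist responses of the 2 OVX arms differed from each other. In ERKO OVX cells 1 of 19 sterol enzymes rose and 7 fell (median -0.14), and no fatty acid gene rose while 4 of 8 fell (median -0.23). In all 2 of 35 genes rose and 12 fell, against 18.3% and 19.2% of 11329 genes (37.5% in all) with a median of 0.00. With libraries rescaled to the same total the split was 5 to 10, and with 16 libraries as separate samples it was 4 to 19. In Ex3a OVX cells 7 of 19 sterol enzymes rose and 1 fell (median 0.13), and 1 of 8 fatty acid genes rose and 2 fell (median -0.00). There 9 of 35 genes rose and 5 fell, against 19.0% and 18.2% of all genes (37.3% together) with a median of 0.01, and the rescaled split was 7 to 7. Of the 7 macrophage markers tested, 5 fell in each of these arms and 1 rose in ERKO OVX, with sums of 465 to 468 FPKM with vehicle and 399 to 405 with agonists in ERKO OVX, and of 1526 against 1230 to 1245 in Ex3a OVX. Of the 7 neutrophil markers, 3 fell in ERKO OVX (sums of 1295 against 1142 to 1149 FPKM), while 4 fell and 1 rose in Ex3a OVX (297 to 301 against 293 to 305 FPKM). Of 9 dendritic cell markers, 0 rose and 4 fell in ERKO OVX (sums of 10950 to 11016 against 9734 to 9749 FPKM). In Ex3a OVX 2 of them rose and 4 fell (13344 to 13365 against 10812 to 10907 FPKM). The part of these markers in the responses and in their difference was not tested.

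In ERKO OVX cells Dhcr7 fell from 14.9 and 15.5 to 10.0 and 9.25 FPKM (log2 fold change -0.61 ± 0.07, limma adjusted p = 2.36e-04). Mvd fell from 47.8 and 48.7 to 40.2 and 40.7 (log2 fold change -0.25 ± 0.04, limma adjusted p = 0.00121), and the kinase Pmvk from 60.4 and 59.3 to 48.3 and 47.8 (log2 fold change -0.31 ± 0.06, limma adjusted p = 0.00225). Each pair of agonist libraries lay below its vehicle pair, in genes picked by their called change. Nsdhl (-0.31), Lss (-0.21), Ebp (-0.20) and Fdps (-0.15) also fell, although Lss and Fdps missed the threshold after rescaling (adjusted p 0.0792 and 0.248). Hsd17b7 was the single sterol enzyme that rose, from 4.25 and 4.39 to 5.28 and 5.32 FPKM (log2 fold change 0.24 ± 0.06, limma adjusted p = 0.00804). Idi1, the largest riser of WT and KO, was at 9.86 and 9.26 FPKM with vehicle and 9.27 and 10.5 with agonists (0.04 ± 0.05), and the libraries of the 2 treatments overlapped. Insig1 rose (25.6 and 24.0 to 28.5 and 29.6 FPKM, log2 fold change 0.22 ± 0.06, limma adjusted p = 0.0124), although few of the sterol enzymes did. Srebf2 was at 43.4 and 43.0 with vehicle and 42.7 and 40.9 with agonists and Srebf1 at 21.8 and 21.5 against 20.5 and 20.1, and neither passed the test. Scd1 fell from 9.94 and 9.75 to 6.95 and 6.49 FPKM (log2 fold change -0.49 ± 0.05, limma adjusted p = 1.02e-04) and Scd2 from 78.4 and 78.4 to 55.4 and 55.8 (log2 fold change -0.49 ± 0.05, limma adjusted p = 1.01e-04). Fads2 fell from 23.1 and 22.5 to 16.8 and 16.6 (log2 fold change -0.43 ± 0.09, limma adjusted p = 0.00507), and Fads1 fell by 0.34. Abcg1 fell from 65.7 and 64.3 to 48.6 and 50.5 FPKM (log2 fold change -0.39 ± 0.04, limma adjusted p = 9.27e-05), while Abca1 was at 31.2 and 31.9 against 34.1 and 35.1 and missed the threshold (limma adjusted p = 0.0625).

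In Ex3a OVX cells Mvd rose from 23.8 and 23.4 to 31.3 and 29.6 FPKM (log2 fold change 0.35 ± 0.04, limma adjusted p = 1.38e-04), the opposite of its change in ERKO OVX. Fdft1, which makes squalene, rose from 7.29 and 7.17 to 8.80 and 9.69 (log2 fold change 0.31 ± 0.07, limma adjusted p = 0.00872) and Lss, which closes the sterol rings, from 5.29 and 5.40 to 6.52 and 6.54 (log2 fold change 0.25 ± 0.06, limma adjusted p = 0.00739). The agonist libraries of these genes, which were picked by their called change, lay above the vehicle libraries. Mvk (0.25), Cyp51 (0.22), Idi1 (0.22) and Fdps (0.20) also rose, and Ebp (-0.18) fell. Without Ex3a OVX vehicle replicate 1 the change of Idi1 was 0.12 (adjusted p = 0.0972), and without agonist replicate 1 it was 0.13 (adjusted p = 0.0875). Mvk missed the threshold after rescaling (0.18, adjusted p = 0.108). Dhcr7 stood at 10.0 and 10.6 FPKM with vehicle and 9.74 and 9.25 with agonists, and its change of -0.11 ± 0.07 did not pass the test. Fads2 rose from 3.43 and 3.32 to 4.43 and 5.28 FPKM (log2 fold change 0.42 ± 0.09, limma adjusted p = 0.00594), while Scd1 fell from 3.499 and 3.46 to 2.32 and 2.53 (log2 fold change -0.39 ± 0.05, limma adjusted p = 3.45e-04) and Scd2 by 0.17. Insig1 was at 12.5 and 11.9 against 12.2 and 12.4 FPKM and Srebf2 at 27.2 and 27.7 against 26.6 and 26.2, without passing. Srebf1 fell from 19.5 and 19.4 to 17.5 and 17.7 (log2 fold change -0.14 ± 0.04, limma adjusted p = 0.0314). Abcg1 fell from 72.9 and 73.6 to 60.3 and 57.7 FPKM (log2 fold change -0.31 ± 0.04, limma adjusted p = 2.97e-04), and Abca1 was at 50.9 and 50.6 against 52.2 and 50.7.

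Tested directly, the response was more positive in Ex3a OVX than in ERKO OVX for 11 of 35 genes and more negative for 0, where 16.6% of 11329 genes were more positive and 14.6% more negative (31.2% together). The split became 7 to 5 with libraries rescaled to the same total, which moved the median of all genes by -0.13, and 12 to 2 with 5 FPKM added before the logarithm. The 8 sterol enzymes among them were Mvd (0.60), Dhcr7 (0.51), Lss (0.46), Fdft1 (0.46), Mvk (0.44), Pmvk (0.37), Fdps (0.35) and Cyp51 (0.35). The 3 fatty acid genes were Fads2 (0.85 ± 0.13, limma adjusted p = 0.00137), Fads1 (0.38) and Scd2 (0.31). Mvk, Pmvk, Scd2 and Fads1 missed the threshold after rescaling (adjusted p 0.0665, 0.0641, 0.108 and 0.0727). Neither exporter passed this test.

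Between arms that carry ERα short by the source labels, the response in ERKO OVX was more positive than in KO for 2 genes of 35 and more negative for 14, against 11.3% and 12.4% of 11328 genes (23.7% together). The sterol enzymes had 1 more positive and 10 more negative. Idi1 differed most (-0.75 ± 0.07, limma adjusted p = 7.39e-05), followed by Fdps (-0.52), Cyp51 (-0.42) and Lss (-0.40). Acly (-0.42) and Abcg1 (-0.37) were more negative as well. Scd1 had the most positive difference (0.75 ± 0.06, limma adjusted p = 5.61e-05), where it fell less, from a lower vehicle level. Dhcr7 (0.31) lost its call without KO vehicle replicate 1 or 2, KO agonist replicate 1 or ERKO OVX agonist replicate 1 (adjusted p 0.075, 0.0655, 0.0526 and 0.0604). Surgery, estradiol pellet and sequencing depth cannot be told apart in this comparison.

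**Figure D3:**
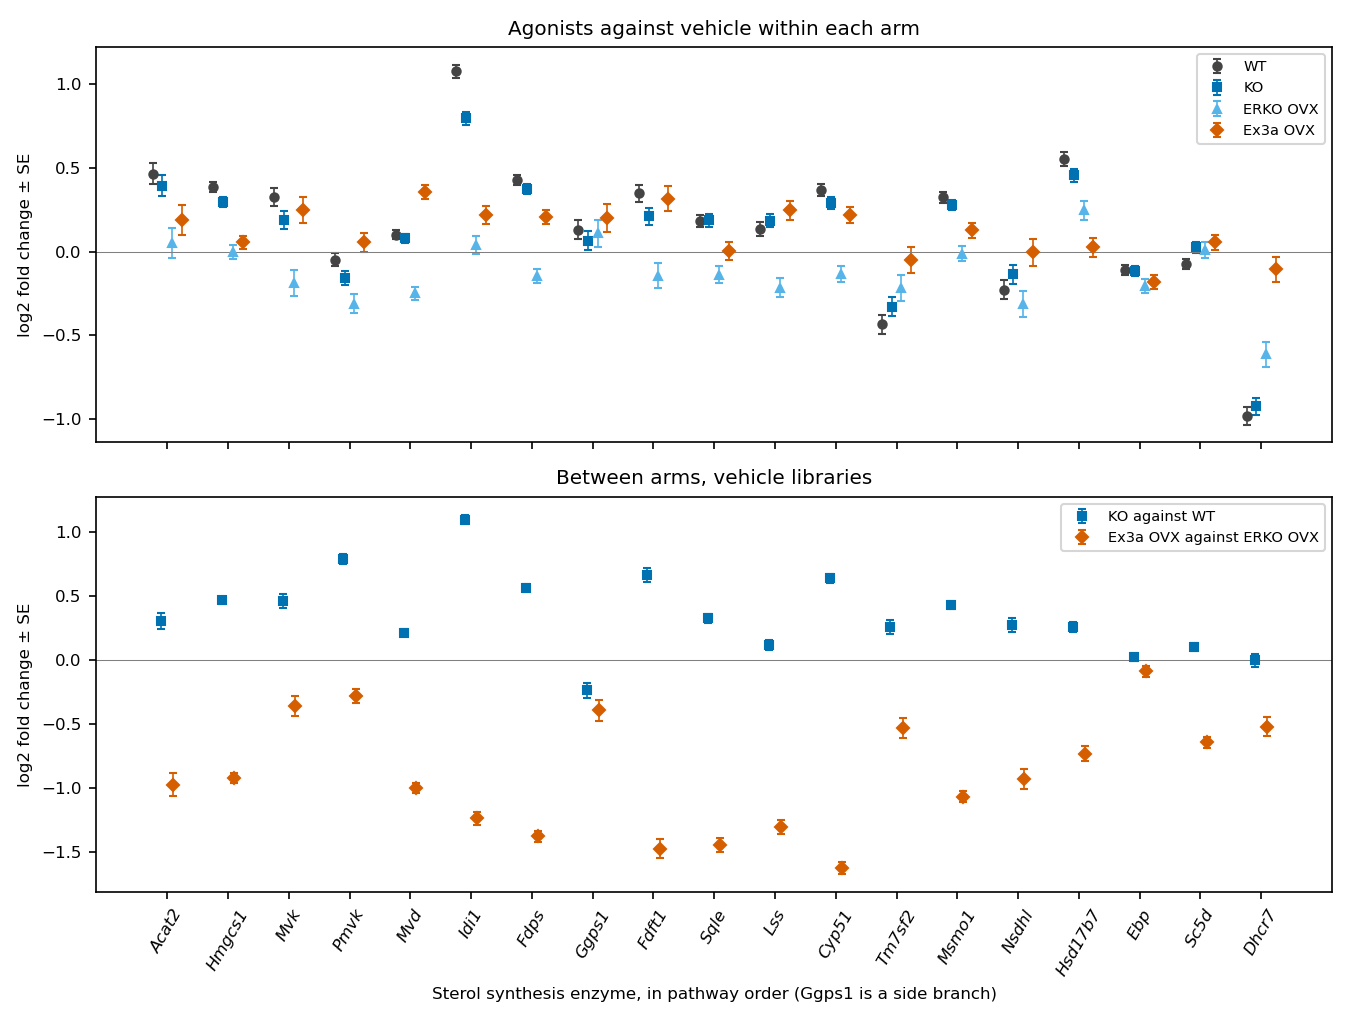
Log2 fold change of FPKM + 1 (vertical axes, ± standard error of the limma fit) of the 19 sterol enzymes in pathway order (horizontal axis), for the agonist response in each arm (top) and for 2 pairs of arms with vehicle (bottom). Idi1 and Dhcr7 mark the extremes of the WT and KO responses, and nearly all enzymes lie above 0 in KO against WT and below 0 in Ex3a OVX against ERKO OVX.

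Against WT, KO cells had higher levels of sterol enzymes in both treatments. With vehicle 16 of 19 were higher and 1 lower (median 0.30), and 4 of 8 fatty acid genes were higher and 0 lower (median 0.10). Of all 35 genes 25 were higher and 3 lower, against 31.5% and 28.6% of 11329 genes (60.2% together) and a median of 0.01. With agonists 27 of 35 were higher and 3 lower, against 27.2% and 27.6% of 11328 genes (54.8% together). Among them 16 of 19 sterol enzymes (median 0.33) and 6 of 8 fatty acid genes (median 0.17) were higher.

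With vehicle, Idi1 was at 10.3 and 10.3 FPKM in WT and 24.1 and 22.3 in KO (log2 fold change 1.10 ± 0.04, limma adjusted p = 1.28e-08). Pmvk was at 44.6 and 45.04 against 77.7 and 78.7 FPKM (log2 fold change 0.79 ± 0.04, limma adjusted p = 1.36e-07). Fdft1 was at 8.12 and 7.45 against 12.7 and 13.1 (log2 fold change 0.66 ± 0.05, limma adjusted p = 2.92e-06), and the demethylase Cyp51 at 7.85 and 8.21 against 13.2 and 12.9 (log2 fold change 0.64 ± 0.03, limma adjusted p = 2.10e-07). The KO libraries lay above the WT libraries for all 4 enzymes, which were picked by their called change. Ggps1, which leaves the sterol path to make geranylgeranyl groups, was the single sterol enzyme lower in KO (-0.24), and it lost its call without WT vehicle replicate 2 (-0.16, adjusted p = 0.0556) or KO vehicle replicate 2 (-0.19, adjusted p = 0.0521). Ebp (0.02) and Dhcr7 (-0.00) did not pass the test.

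Fads2 was at 2.24 and 2.15 FPKM in WT vehicle and 5.90 and 6.12 in KO vehicle cells (log2 fold change 1.13 ± 0.06, limma adjusted p = 3.07e-07), and Scd1 at 28.8 and 28.6 against 43.2 and 42.0 (log2 fold change 0.56 ± 0.04, limma adjusted p = 7.03e-07). Acaca (0.23) and Fasn (0.13) were higher by less, and Fasn lost its call without WT vehicle replicate 2 (adjusted p = 0.0541). Srebf2 was at 35.2 and 34.98 FPKM in WT and 46.9 and 48.2 in KO (log2 fold change 0.43 ± 0.03, limma adjusted p = 5.20e-07), and Insig1 at 12.3 and 12.1 against 15.2 and 14.3 (log2 fold change 0.26 ± 0.04, limma adjusted p = 3.53e-04). Srebf1 differed by 0.08 ± 0.03 (limma adjusted p = 0.0411), a call lost without any 1 of the 4 vehicle libraries of these arms or without either KO agonist library (adjusted p 0.0522 to 0.191). Insig2 was lower in KO (-0.26). The Srebf2 levels of the 2 arms did not overlap, and neither did those of Srebf1, at 15.0 and 14.9 against 16.1 and 15.7 FPKM, which lay much closer together.

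The exporters pointed in opposite directions. Abca1 was at 42.8 and 42.1 FPKM in WT vehicle and 30.5 and 29.2 in KO vehicle cells (log2 fold change -0.49 ± 0.03, limma adjusted p = 1.25e-06), and with agonists the difference was -0.79 ± 0.03. Abcg1 was at 39.7 and 39.8 against 55.1 and 53.4 FPKM (log2 fold change 0.44 ± 0.03, limma adjusted p = 5.80e-07), and differed by 0.55 ± 0.03 with agonists. Abca1 was thus lower and Abcg1 higher in KO in each treatment.

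Macrophage markers moved with these arms. All 7 tested of 8 listed were lower in KO than in WT in both treatments, and their summed level was 963 to 998 FPKM in WT vehicle and 294 to 296 in KO vehicle libraries. The complement gene C1qa was at 115 and 110.3 FPKM in WT and 3.09 and 3.45 in KO vehicle cells. Of 9 dendritic cell markers 8 were higher in KO with vehicle, with sums of 5619 to 5653 FPKM against 4852 to 4862 in WT. Neutrophil markers summed to 50.4 to 67.9 FPKM in WT and 95.6 to 108 in KO vehicle libraries, with Elane at 0 in both KO libraries. The part of these cell types in the sterol differences was not tested.

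By the median of the sterol enzymes the OVX arms lay furthest apart, and Ex3a OVX cells had less of nearly every synthesis gene and more of both exporters. With vehicle 18 of 19 sterol enzymes were lower and 0 higher (median -0.93), all 8 fatty acid genes were lower (median -0.70), and both exporters were higher. Of the 35 genes 30 were lower and 2 higher, against 26.1% and 29.2% of 11329 genes (55.3% together) and a median of 0.02. With agonists 26 were lower and 2 higher, against 30.6% and 32.1% of all genes (62.7% together), including 15 of 19 sterol enzymes (median -0.84) and 7 of 8 fatty acid genes (median -0.63).

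Cyp51 was at 22.7 and 23.1 FPKM in ERKO OVX vehicle and 6.99 and 6.45 in Ex3a OVX vehicle libraries (log2 fold change -1.63 ± 0.05, limma adjusted p = 4.67e-09). Fdft1 was at 22.1 and 21.7 against 7.29 and 7.17 FPKM (log2 fold change -1.48 ± 0.07, limma adjusted p = 1.40e-07). Sqle, the squalene epoxidase and a rate-limiting step, was at 32.8 and 30.9 against 11.4 and 10.7 (log2 fold change -1.45 ± 0.05, limma adjusted p = 1.95e-08), and Fdps was at 78.2 and 79.2 against 29.98 and 29.3 (log2 fold change -1.38 ± 0.04, limma adjusted p = 5.26e-09). The Ex3a OVX libraries of all 4, which were picked by their called change, lay under the ERKO OVX libraries by more than 2-fold. Lss (-1.31), Idi1 (-1.24), Msmo1 (-1.07) and Acat2 (-0.98) were also lower, as was Mvd, at 47.8 and 48.7 FPKM against 23.8 and 23.4, and the smallest changes among those called were in Pmvk (-0.28) and Mvk (-0.36). Ebp was the single sterol enzyme that did not pass (34.8 and 35.2 FPKM against 31.9 and 33.9). With agonists Mvk (0.07), Pmvk (0.08), Ebp (-0.06) and Dhcr7 (-0.02) did not pass, and the others remained lower.

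Fads2 was at 23.1 and 22.5 FPKM in ERKO OVX against 3.43 and 3.32 in Ex3a OVX vehicle cells (log2 fold change -2.44 ± 0.09, limma adjusted p = 1.95e-08), the widest difference among the 35 genes in this comparison. Scd2 was at 78.4 and 78.4 against 31.4 and 31.4 (log2 fold change -1.29 ± 0.05, limma adjusted p = 2.59e-08), Scd1 at 9.94 and 9.75 against 3.499 and 3.46 (log2 fold change -1.28 ± 0.05, limma adjusted p = 3.03e-08), and Acaca at 4.24 and 4.10 against 2.17 and 2.05 (log2 fold change -0.73 ± 0.06, limma adjusted p = 2.46e-06). These genes too were picked by their called change, so that no library of one arm overlapped with the other adds no support. With agonists Fads1 (0.00) did not pass. Elovl6 was lower with agonists (-0.20), at values under 1 FPKM in each OVX group, and lost its call without Ex3a OVX agonist replicate 1 (-0.12, adjusted p = 0.197), ERKO OVX agonist replicate 1 (-0.14, adjusted p = 0.126), either WT agonist library or either KO vehicle library (adjusted p 0.0526 to 0.0527).

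Of the regulators, Insig1 was at 25.6 and 24.0 FPKM in ERKO OVX against 12.5 and 11.9 in Ex3a OVX vehicle cells (log2 fold change -0.96 ± 0.06, limma adjusted p = 4.20e-07). Srebf2 was at 43.4 and 43.0 against 27.2 and 27.7 (log2 fold change -0.64 ± 0.04, limma adjusted p = 4.06e-07), Stard4 was lower too (-0.75), and Srebf1 differed by -0.15 ± 0.04. Scap (0.02) and Insig2 (-0.13) did not pass. Srebf2 was thus lower by more than Srebf1 in the arm with fewer sterol transcripts.

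Abca1 was at 31.2 and 31.9 FPKM in ERKO OVX against 50.9 and 50.6 in Ex3a OVX vehicle cells (log2 fold change 0.67 ± 0.05, limma adjusted p = 1.98e-06), and Abcg1 at 65.7 and 64.3 against 72.9 and 73.6 (log2 fold change 0.17 ± 0.04, limma adjusted p = 0.00448). With agonists the differences were 0.56 ± 0.05 and 0.25 ± 0.04. Both exporters stood higher in Ex3a OVX in each treatment without overlap, although each OVX pair counts as 1 sample. With libraries rescaled to the same total, which moved the median of all genes by -0.14 in agonist cells, Abcg1 with agonists no longer passed (0.08, limma adjusted p = 0.122).

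The cell markers of these arms differed as well. All 7 tested macrophage markers of 8 listed were higher in Ex3a OVX in both treatments, with sums of 1526 FPKM in both libraries against 465 to 468 with vehicle, and C1qa was at 2.66 and 2.20 FPKM in ERKO OVX against 115 and 117 in Ex3a OVX. Neutrophil markers summed to 1295 FPKM in both ERKO OVX vehicle libraries and to 297 and 301 in those of Ex3a OVX. The list was not uniform, as of 7 tested 2 were higher and 3 lower in Ex3a OVX with vehicle. With agonists 1 was higher and 3 were lower. Mast cell, basophil and eosinophil markers summed to 71.4 to 71.8 FPKM and 24.3 to 25.1, with Epx at 0 in both Ex3a OVX libraries. T cell markers summed to 1.44 to 1.76 FPKM and 6.30 to 6.34. Of 9 dendritic cell markers, 3 were higher and 5 lower in Ex3a OVX with vehicle. Their sums were 10950 to 11016 FPKM in ERKO OVX and 13344 to 13365 in Ex3a OVX, while Itgax was at 155 and 152 against 86.3 and 86.0 and Irf4, a transcription factor of these cells, at 26.7 and 26.0 against 8.63 and 8.73. The part of dendritic cell, macrophage, neutrophil, mast cell, basophil and eosinophil RNA in the results on the 35 genes was not tested.

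**Figure D4:**
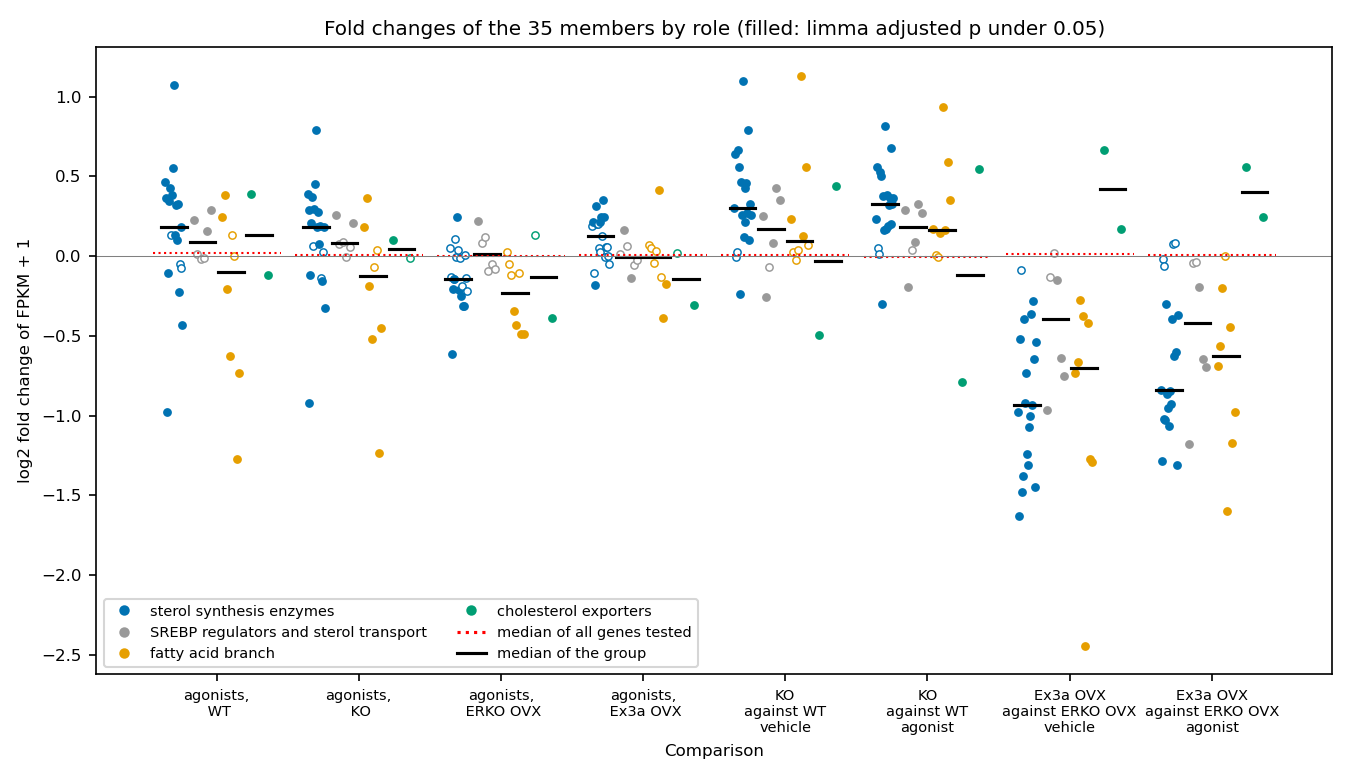
Log2 fold change of FPKM + 1 (vertical axis) of each of the 35 genes in 8 comparisons (horizontal axis), coloured by role, filled where the limma adjusted p is under 0.05, with a black line at the median of each role and a dotted line at the median of all genes tested. The sterol and fatty acid genes lie mostly below 0 and the exporters above 0 in Ex3a OVX against ERKO OVX, and the fatty acid genes spread to both sides of 0 in the agonist responses of WT and KO.

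ERKO OVX against KO compares arms that share ERα short by the source labels and differ in surgery, estradiol pellet and sequencing depth, which cannot be told apart. With vehicle 22 of 35 genes were higher and 9 lower in ERKO OVX, against 40.9% and 40.0% of 11329 genes (80.8% together), and 14 of 19 sterol enzymes were higher (median 0.60). With agonists 20 were higher and 12 lower, against 40.1% and 38.6% of 11328 genes (78.6% together). Rescaling the libraries to the same total turned the splits to 13 higher and 16 lower with vehicle and to 10 and 17 with agonists, and moved the median of all genes by -0.36 and -0.28, so directions here depend on the scaling. Changes larger than this shift included those of Scd1, at 43.2 and 42.0 FPKM in KO and 9.94 and 9.75 in ERKO OVX vehicle cells (log2 fold change -2.01 ± 0.04, limma adjusted p = 1.34e-10), and of Idi1, at 24.1 and 22.3 against 9.86 and 9.26 (log2 fold change -1.20 ± 0.05, limma adjusted p = 5.33e-09). Fads2 went the other way, from 5.90 and 6.12 to 23.1 and 22.5 FPKM (log2 fold change 1.77 ± 0.08, limma adjusted p = 1.35e-08), as did Msmo1 (1.17), Scd2 (1.05) and Fdps (0.96). Thus Scd1 and Scd2, and Idi1 and Fdps, moved apart within their branches. Srebf1 was higher by 0.43 ± 0.04 and missed the threshold after rescaling (0.04). Abca1 did not pass with vehicle (0.08), and Abcg1 was higher by 0.26, a direction that rescaling reversed. Mast cell, basophil and eosinophil markers summed to 71.4 to 71.8 FPKM in ERKO OVX vehicle and 0.291 to 0.330 in KO vehicle libraries. Neutrophil markers summed to 1295 and at most 108 FPKM. Of 9 dendritic cell markers, 4 were higher and 4 lower in ERKO OVX with vehicle. Among them Zbtb46 was at 4.28 and 4.20 FPKM against 21.4 and 22.8 in KO, and H2-Ab1 at 1380 and 1357 against 287 and 290. Of 7 macrophage markers tested, 3 were higher and 3 lower. The part of all these markers in these differences was not tested.

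Other genes of the pathway gave a background to the members. Of 8 genes for SREBP processing and degradation, with agonists 4 rose and 1 fell in each unoperated arm, 2 rose in ERKO OVX and none passed in Ex3a OVX. Among all genes tested, WT had 30.8% that rose and 27.0% that fell, KO had 25.9% and 25.3%, ERKO OVX had 18.3% and 19.2%, and Ex3a OVX had 19.0% and 18.2%. The counts of the 2 lists that follow stand beside the same shares. The largest change was in Rnf145, a ubiquitin ligase known to act on Scap, from 10.9 and 10.5 to 16.9 and 16.8 FPKM in WT (log2 fold change 0.61 ± 0.03, limma adjusted p = 2.15e-07). It was 0.53 in KO and 0.53 in ERKO OVX. Of 14 further SREBP target and lipid synthesis genes tested, 4 rose and 5 fell in each unoperated arm, while ERKO OVX had 2 that rose and 5 that fell and Ex3a OVX had 3 and 2. Acss2, which makes acetyl-CoA from acetate, fell in KO (-0.53) and ERKO OVX (-0.47). The elongase Elovl5 fell in WT (-0.49), KO (-0.33) and ERKO OVX (-0.28). The malic enzyme Me1, a source of NADPH, rose in WT (0.41) and Ex3a OVX (0.39). Of these 14, 11 were lower and 0 higher in vehicle cells of Ex3a OVX than in those of ERKO OVX, Acss2 by the most (-2.01 ± 0.08), where 26.1% of all genes were lower and 29.2% higher. In KO against WT with vehicle 2 were higher and 5 lower, where 31.5% and 28.6% of all genes were.

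Of 14 LXR and cholesterol handling genes other than the exporters, 3 rose and 9 fell with agonists in WT cells. In KO 1 rose and 9 fell, in ERKO OVX 1 rose and 6 fell, and in Ex3a OVX 2 rose and 11 fell. Nceh1, which frees cholesterol from its esters, fell from 51.9 and 51.4 to 27.1 and 25.9 FPKM in WT (log2 fold change -0.94 ± 0.04, limma adjusted p = 6.15e-08) and also fell in KO (-0.995) and ERKO OVX (-0.46). The lipid droplet protein Plin2 fell in WT from 622 and 612 to 387 and 368 FPKM (log2 fold change -0.71 ± 0.03, limma adjusted p = 4.60e-08). It also fell in KO (-0.68) and ERKO OVX (-0.43). Cyp27a1, which makes 27-hydroxycholesterol, an LXR ligand, fell in WT (-0.83), KO (-0.86) and Ex3a OVX (-0.51). Apoe fell in Ex3a OVX (-0.74) at levels under 2 FPKM. Abca1, in contrast, rose in WT and did not fall in any arm. Against ERKO OVX, 8 of the 14 were higher and 3 lower in Ex3a OVX with vehicle (29.2% and 26.1% of all genes), and against WT, 3 were higher and 7 lower in KO (31.5% and 28.6%).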

How the data were processed

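The deposited table gives FPKM per gene symbol for 16 libraries. Per the submitters' processing notes, the authors used cutadapt, FastQC, STAR, HTSeq, DESeq2 and the mm10 build. The program that made the FPKM and its annotation are not given in the sources used here. Such values divide by library total and gene length, so genes that take a large share of a library lower all others, and count tests were not used. The counts assumed when the tests were planned were not among the values, so, in place of a count model, limma (3.58.1, R 4.3.3) was fitted to log2(FPKM + 1), with trended and robust variances.

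Left out were 1226 small RNA genes and 27 symbols turned into dates, and 5 isolated zeros were treated as missing. Genes needed 1 FPKM in 2 libraries, which 11329 of 24001 met. P-values were adjusted by the Benjamini-Hochberg method within each of 13 comparisons at 0.05. OVX pairs, whose variance at 5000 fragments or more was 0.771 to 0.881 times sampling variance against 2.01 to 5.20 without surgery, were averaged, which left 4 residual degrees of freedom. At 1000 fragments or more the ratios were 0.690 to 0.734 and 0.996 to 1.70. The 0.996 is that of the WT vehicle pair, which was near sampling noise there and was kept as 2 samples. Depth was estimated from 3937 single-transcript genes. On simulated data for the WT agonist response over 11329 genes, 95% of 100 genes changed by 0.5 log2 units and 100% of those changed by 1.0 were recovered, and 0.0899% of unchanged genes were called. The simulation drew independent normal noise of an assumed spread. It changed only genes above a set level and left all others unchanged, so its rates need not hold for these data.

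Members and lists were chosen with earlier results of these data known. Library values are given for up to 4 called genes per branch and comparison with the largest changes, both exporters, Srebf1, Srebf2 and Insig1. Where genes were picked by the size of a called change, libraries without overlap follow largely from that choice and add no support. Other pathway genes are named where among the 3 largest called changes of their list in an agonist response. Alternatives were 0.1 or 5 FPKM added, no filter, rescaling to TPM (the same total per library), median-of-ratios scaling, 16 separate libraries, limma without trend and robust variances, replicate blocks and leaving out each library. Tables and figures were made with Python 3.11.15, pandas 2.3.3 and matplotlib 3.10.9. The genes Adgre1 and Ly6g of the marker lists were not analysed here.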

Additional observations from a re-analysis of the deposited data

Results flagged for a closer look

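For 30 results the agonist response of a gene differed between 2 arms by the limma test of that difference, given here in log2 units. Between KO and WT the response was more negative in KO for Abca1 (-0.29) and Idi1 (-0.28) and more positive for Scd2 (0.28).

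Between Ex3a OVX and ERKO OVX the response was more positive in Ex3a OVX for 11 genes. Among sterol enzymes the differences were 0.60 for Mvd, 0.51 for Dhcr7, 0.46 for Lss, 0.46 for Fdft1, 0.44 for Mvk, 0.37 for Pmvk, 0.35 for Fdps and 0.35 for Cyp51. Among fatty acid genes they were 0.85 for Fads2, 0.38 for Fads1 and 0.31 for Scd2.

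Between ERKO OVX and KO the response was more positive in ERKO OVX for Scd1 (0.75) and Dhcr7 (0.31). It was more negative for the sterol enzymes Idi1 (-0.75), Fdps (-0.52), Cyp51 (-0.42), Lss (-0.40), Mvk (-0.38), Fdft1 (-0.35), Mvd (-0.33), Sqle (-0.32), Hmgcs1 (-0.30) and Msmo1 (-0.29). It was also more negative for Acly (-0.42), Abcg1 (-0.37), Fads2 (-0.36) and Stard4 (-0.29). Fads2 lost its call without either WT vehicle library, either KO vehicle library or KO agonist replicate 2 (adjusted p 0.0578 to 0.0979), Fdft1 without KO vehicle replicate 1 (adjusted p = 0.0556), and Dhcr7 without KO vehicle replicate 1 or 2, KO agonist replicate 1 or ERKO OVX agonist replicate 1 (adjusted p 0.0526 to 0.075).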

How the results depend on the processing

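Of 291 called results of single genes, 238 kept call and direction under every alternative tried and 53 changed under at least 1. Of these, 47 lost the call, 11 reversed, and 5 did both. The reversals all came with rescaling to TPM in ERKO OVX against KO. With vehicle the rescaled values were -0.14 for Mvk, -0.18 for Ggps1, -0.27 for Sc5d, -0.24 for Acly, -0.030 for Fads1 and -0.14 for Abcg1. With agonists they were -0.049 for Ggps1, -0.021 for Sqle, -0.087 for Lss, -0.20 for Sc5d and -0.20 for Abca1. That rescaling moved the median of all genes by -0.36 and -0.28 there, by -0.14 in Ex3a OVX against ERKO OVX with agonists, and by -0.13 in the difference of their responses. With 16 libraries as separate samples the called genes of the ERKO OVX response went from 14 to 23, and to 23 with a replicate block added, fits in which the OVX pairs enter the error. Over all genes, the difference between Ex3a OVX and ERKO OVX responses had 3533 calls, against 5524 with 16 libraries and 5492 with the block added. The difference between KO and WT responses had 783, against 507 with no filter and 420 to 497 without WT vehicle replicate 1 or 2, WT agonist replicate 2 or KO vehicle replicate 1 or 2. The split of the members in these differences was 14 to 2 and 1 to 1 with 16 libraries, and 12 to 2 and 1 to 1 with 5 FPKM added. Leaving out each library in turn gave 24 to 28 called members in WT, 20 to 25 in KO, 14 to 17 in ERKO OVX and 14 to 15 in Ex3a OVX. The replicate block on 12 samples gave 27, 24, 14 and 14. Replicate numbers do not pair the libraries, since replicate differences of groups correlated at -0.19 to 0.11 over genes. With 2 libraries per group and 4 residual degrees of freedom, small changes were not resolved, and depth in the OVX arms limits genes near 1 FPKM.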

Other observations

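One of the 14 LXR and cholesterol handling genes was picked out after its values were seen, and is given as a description without its test. It is already part of the counts of that list and adds nothing independent to them. Nr1h3, which encodes the oxysterol receptor LXRα, was at 21.9 and 21.0 FPKM in ERKO OVX vehicle libraries and 66.1 and 67.4 in Ex3a OVX vehicle libraries. With agonists it was at 21.1 and 22.5 against 85.6 and 90.1 FPKM. In the unoperated arms it was at 5.25 and 5.60 FPKM in WT vehicle and 7.03 and 6.43 in KO vehicle libraries. The Ex3a OVX libraries lay above those of ERKO OVX in each treatment. Macrophage markers, whose cells are known to express Nr1h3, were also higher in Ex3a OVX than in ERKO OVX, and their part in this difference was not tested.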
